A study of Mus musculus with 18 samples.

Results

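Loss of Klf15 from the proximal tubule was examined in mice that had received vehicle and no toxin, by setting 3 kidney cortex libraries of Klf15PTKO mice (PTKO) against 3 of Klf15fl/fl mice (fl/fl). These 6 libraries were chosen by their labels alone, from 18 in the series. PTKO DMSO mice were C57Bl/6 with Klf15 deleted in the proximal tubule, and fl/fl DMSO mice were C57Bl/6 with the floxed Klf15 alleles. DMSO, the vehicle of the toxin, was given to both groups. The other 12 libraries came from mice of the same genotypes given aristolochic acid I, a plant toxin of the proximal tubule, with 3 libraries for each genotype after 2 weeks of toxin (AA 2wk) and 3 after a further 2 weeks of remodeling (AA 4wk). They are used below to look at the genotype effect in separate samples, to test whether it differed from that in DMSO, and in a fit over all 18 libraries. The labels state neither the age of the mice nor the time of day of collection, and name neither the Cre line nor the exons removed. No labelled group carries Cre with intact Klf15, so loss of Klf15 and presence of Cre cannot be told apart. Nothing in the labels says that the 3 libraries of a group are 3 mice. Each p-value therefore reflects the spread between these samples alone, which may be technical.

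KLF15 is a zinc finger transcription factor of the Krüppel-like family, whose members bind CACCC boxes and GC-rich stretches of promoters. In mouse liver and muscle it is known to raise enzymes of amino acid breakdown, among them alanine aminotransferase and proline dehydrogenase, and it is itself induced by glucocorticoids and fasting and runs with the circadian clock. The proximal tubule takes up filtered solutes and burns fatty acids to pay for that transport. It also breaks down amino acids and makes glucose.

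RPKM, the read density per length of transcript and per depth of library, was deposited for 24062 genes, of which 11767 reached 1 RPKM in at least 3 of the 6 libraries and were tested. Depth, from whole reads recovered from the RPKM steps, was 12.3 to 21.9 M reads in PTKO DMSO and 15.8 to 18.04 M reads in fl/fl DMSO. Replicates correlated at 0.9916 to 0.9941 in PTKO DMSO and at 0.9739 to 0.9895 in fl/fl DMSO across genes. The first principal component, with 49.1% of the variance, set the library fl/fl DMSO 2 at -29.6 apart from fl/fl DMSO 3 at 19.9, with the PTKO libraries between -0.6 and 7.1. The second, with 24.2%, put the PTKO libraries at -13.4 to -5.5 and the fl/fl libraries at 5 to 15.2. Cortex identity was checked with 28 proximal tubule markers, of which 27 were tested. Their summed level was 15870, 16550 and 15170 RPKM in PTKO DMSO and 17300, 15520 and 17710 RPKM in fl/fl DMSO.

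Klf15 RNA fell to 51.7% of the fl/fl mean in the PTKO libraries. Klf15 (chr6:90462576-90475238, plus strand; mm10) stood at 28.5, 31.9 and 32.6 RPKM in PTKO DMSO, against 53.03, 61.3 and 65.5 RPKM in fl/fl DMSO. All 3 PTKO libraries lay below all 3 fl/fl libraries, and the gap between the groups was wider than the spread inside either. The log2 fold change was -0.93 ± 0.09 (SE) on the log2(RPKM + 1) scale, with an adjusted p of 0.0274 by limma, Benjamini-Hochberg adjusted over all tested genes. The remaining level covers the whole cortex, in which podocytes and other cells outside the proximal tubule are also known to express Klf15, and it was not resolved by cell type. In bulk tissue, fewer cells of a type and less RNA per cell cannot be told apart. Of the 17 KLF family members listed, 13 were tested, and Klf15 was the only one called.

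**Figure D1:**
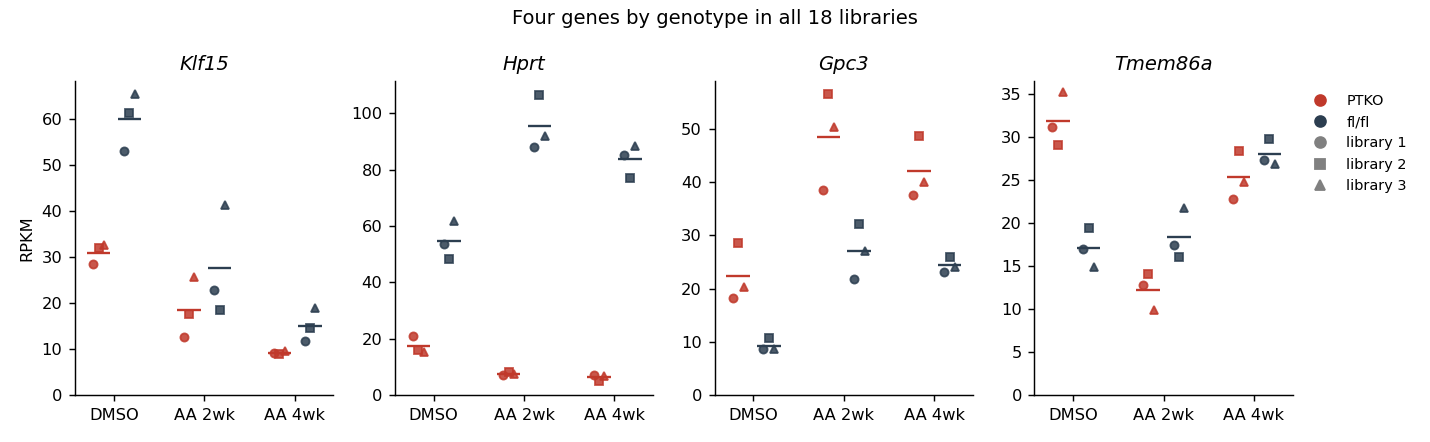
RPKM (linear axis) of 4 genes in all 18 libraries by treatment, PTKO to the left in red and fl/fl to the right in dark blue, with 1 point per library and a bar at the mean of 3. In DMSO, Klf15 and Hprt are lower in every PTKO library and Gpc3 and Tmem86a are higher, and the genotype gap of Hprt is widest in both toxin groups.

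Without toxin few genes were called for genotype. With 3 libraries per group, a gene that was not called is not shown to be unchanged. limma called 15 of 11767 tested genes at an adjusted p of 0.05, or 0.127%, with 14 lower in PTKO (0.119%) and 1 higher (0.0085%). An unadjusted p under 0.05 was reached by 991 genes (8.42%), 534 of them higher (4.54%) and 457 lower (3.88%). Groups lay fully apart for 996 genes higher in PTKO (8.46%) and 741 lower (6.3%). The median log2 fold change over all tested genes was 0.01. The number called rests on single libraries. Leaving out PTKO DMSO 1, 2 or 3 left 1, 0 and 1 genes called, and leaving out fl/fl DMSO 1 left 0, whereas leaving out fl/fl DMSO 2 or 3 gave 29 and 22. Those runs held 545, 866, 623, 732, 1479 and 1618 genes at an unadjusted p under 0.05. A fit over all 18 libraries called 5 of 13624 genes in DMSO (0.0367%), of which only Hprt was among the 15. voom on the recovered reads called 10, all of them among the 15, so a list without a call below had none there either. In the leave-one-out fits the 15 called genes kept their direction, and their unadjusted p did not exceed 0.000561. These genes were picked by p from the same 6 libraries that those fits reuse, so this is no separate support. The 15 genes are described next by role, in groups made after the calls were known.

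Among called enzymes of amino acid breakdown the smallest p belonged to Gstz1 (chr12:87147165-87164723, plus strand), the maleylacetoacetate isomerase of tyrosine breakdown. Gstz1 measured 129.8, 127 and 129.8 RPKM in PTKO DMSO and 225, 243 and 229.8 RPKM in fl/fl DMSO. The PTKO libraries were nearly level with each other and sat at 55.5% of the fl/fl mean, well clear of the lowest fl/fl library. Its log2 fold change was -0.84 ± 0.06 (adjusted p = 0.00994, limma). Gnmt (chr17:46725664-46729168, minus strand), which uses S-adenosylmethionine to methylate glycine, measured 11.9, 9.85 and 11.5 RPKM in PTKO DMSO and 29.9, 25.5 and 26.2 RPKM in fl/fl DMSO. Every PTKO library had less than 50% of the lowest fl/fl value, and the log2 fold change was -1.22 ± 0.10 (adjusted p = 0.0115, limma).

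Gpt (chr15:76695716-76699686, plus strand), the cytosolic alanine aminotransferase, measured 5.50, 5.25 and 6.95 RPKM in PTKO DMSO and 12.1, 11.5 and 12.7 RPKM in fl/fl DMSO. Both groups were low in level and did not overlap (log2 fold change -0.93 ± 0.11, adjusted p = 0.0483, limma). Dhtkd1 (chr2:5896115-5942792, minus strand), which encodes the 2-oxoadipate dehydrogenase of lysine and tryptophan breakdown in mitochondria, measured 5.99, 7.27 and 6.62 RPKM in PTKO DMSO and 14.9, 16.7 and 12.2 RPKM in fl/fl DMSO. Its PTKO libraries averaged 45.4% of fl/fl, with a log2 fold change of -1.03 ± 0.12 (adjusted p = 0.0483, limma). Acy1 (chr9:106432981-106438319, minus strand), the cytosolic aminoacylase that frees amino acids from their N-acetyl forms, measured 45.3, 46.5 and 47.3 RPKM in PTKO DMSO and 79.3, 101 and 77.96 RPKM in fl/fl DMSO. The PTKO values were close together and the fl/fl values were spread by library 2, which was the highest, yet all lay above all PTKO values (log2 fold change -0.87 ± 0.10, adjusted p = 0.0483, limma).

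The promoters of Klf15 and of 4 called enzymes of amino acid metabolism are shown because the family's CACCC box is the motif a reader would look for in them. The table of RefSeq promoters used here (GRCm38.p6) was matched for 11 of the 15 called genes. The 5 printed are those of Klf15 and of the matched enzymes described above. For all 5, bases just past the RefSeq start were found within a GENCODE transcript of the gene. That check covers orientation and not the position of the start. Each line gives the 250 bases before that RefSeq start, 5′ to 3′ on the strand of the gene. The windows of Gnmt and Acy1 reach into the gene as placed above, whose outermost start in GENCODE lies further upstream. Capitals mark CACCC or its reverse complement GGGTG, and the 9-base GC-rich motif CCCCGCCCC or its reverse complement GGGGCGGGG.
Klf15 (chr6:90462326-90462575, plus strand): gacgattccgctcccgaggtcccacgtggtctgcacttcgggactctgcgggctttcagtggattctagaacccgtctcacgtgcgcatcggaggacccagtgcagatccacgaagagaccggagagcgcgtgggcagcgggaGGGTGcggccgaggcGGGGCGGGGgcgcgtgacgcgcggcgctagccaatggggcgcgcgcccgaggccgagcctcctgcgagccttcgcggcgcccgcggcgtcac
Gstz1 (chr12:87146915-87147164, plus strand): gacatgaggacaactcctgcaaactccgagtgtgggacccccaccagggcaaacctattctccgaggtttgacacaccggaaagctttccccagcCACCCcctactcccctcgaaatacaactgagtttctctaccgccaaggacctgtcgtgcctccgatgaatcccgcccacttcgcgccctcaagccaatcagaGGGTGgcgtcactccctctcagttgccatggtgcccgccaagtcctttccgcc
Gnmt (chr17:46729166-46729415, minus strand): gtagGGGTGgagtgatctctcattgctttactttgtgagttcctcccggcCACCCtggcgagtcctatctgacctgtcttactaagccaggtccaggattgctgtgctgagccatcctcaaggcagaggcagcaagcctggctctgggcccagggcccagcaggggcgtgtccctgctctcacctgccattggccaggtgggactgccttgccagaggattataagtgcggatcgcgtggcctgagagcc
Dhtkd1 (chr2:5942793-5943042, minus strand): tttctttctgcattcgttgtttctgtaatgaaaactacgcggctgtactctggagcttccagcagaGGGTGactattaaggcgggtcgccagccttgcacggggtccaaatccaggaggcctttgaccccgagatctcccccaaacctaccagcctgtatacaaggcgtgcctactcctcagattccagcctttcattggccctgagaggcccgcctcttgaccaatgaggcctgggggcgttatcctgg
Acy1 (chr9:106438237-106438486, minus strand): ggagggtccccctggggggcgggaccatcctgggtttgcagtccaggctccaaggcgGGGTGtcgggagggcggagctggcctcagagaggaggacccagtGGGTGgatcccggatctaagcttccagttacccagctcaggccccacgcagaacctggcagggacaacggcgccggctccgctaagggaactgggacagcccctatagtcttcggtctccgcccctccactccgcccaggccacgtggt

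Searched on both strands, CACCC was found in 9 of the 11 called promoters (81.8%) and in 57.2% of the promoters of 8916 tested genes. Among the 11, the check of bases past the RefSeq start found no match for Slc13a2, Slc25a34 and Hprt. Of these genes, Slc13a2 and Slc25a34 are counted as holding CACCC. CCCCGCCCC was found in 2 of 11 (18.2%), those of Klf15 and Ddt, and in 20.4% of the tested promoters. In the 5 printed windows no match of one motif overlapped a match of the other. A match of letters is a description and not a binding site, and no binding was measured here.

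Among carriers, Slc25a34 (chr4:141618824-141623821, minus strand), a member of the mitochondrial carrier family, measured 11.3, 10.3 and 11.2 RPKM in PTKO DMSO and 22.7, 21.5 and 23.1 RPKM in fl/fl DMSO. The groups were each tight, and PTKO stood at 48.9% of fl/fl (log2 fold change -0.97 ± 0.07, adjusted p = 0.00994, limma). Slc13a2 (chr11:78397087-78422217, minus strand), the apical sodium-dicarboxylate cotransporter through which the proximal tubule takes up citrate, measured 17.4, 20.6 and 19.1 RPKM in PTKO DMSO and 31.7, 35.5 and 30.2 RPKM in fl/fl DMSO. No PTKO library reached the lowest fl/fl library (log2 fold change -0.74 ± 0.09, adjusted p = 0.0483, limma).

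Pxmp2 (chr5:110274282-110286186, minus strand), a channel protein of the peroxisomal membrane, measured 25.5, 27.5 and 26.6 RPKM in PTKO DMSO and 43.5, 50.2 and 45.7 RPKM in fl/fl DMSO, a log2 fold change of -0.78 ± 0.07 (adjusted p = 0.0189, limma). Gstk1 (chr6:42245935-42250447, plus strand), the glutathione transferase of mitochondria and peroxisomes, measured 44.3, 53.1 and 45.9 RPKM in PTKO DMSO and 84.6, 81.6 and 74.02 RPKM in fl/fl DMSO, a log2 fold change of -0.73 ± 0.09 (adjusted p = 0.0483, limma). The groups were fully apart for both genes. Ddt (chr10:75771230-75773414, minus strand), D-dopachrome tautomerase, a relative of the cytokine MIF, was among the more abundant of the called genes, at 199, 202 and 196 RPKM in PTKO DMSO and 307, 284 and 293 RPKM in fl/fl DMSO. Its log2 fold change of -0.57 ± 0.06 was the smallest in size among the 15 (adjusted p = 0.0312, limma).

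The 2 called genes for secreted proteins of lipid and amino acid chemistry also fell. Azgp1 (chr5:137981520-137990233, plus strand), zinc-alpha-2-glycoprotein, a secreted protein known to promote lipid breakdown, measured 46.4, 44.01 and 34.9 RPKM in PTKO DMSO and 125, 107 and 147 RPKM in fl/fl DMSO. Every PTKO library had less than 50% of the lowest fl/fl value (log2 fold change -1.57 ± 0.14, adjusted p = 0.0189, limma). Azgp1 also stands in the list of sex-linked and sex-biased kidney genes, in which it was the only one of 19 tested to be called. The Y-linked Ddx3y lay between 9.82 and 15.8 RPKM and Xist at no more than 0.0158 RPKM over all 18 libraries. Pm20d1 (chr1:131797381-131821473, plus strand), a secreted enzyme that joins and splits fatty acids and amino acids, measured 25.4, 26.7 and 24.4 RPKM in PTKO DMSO and 41.6, 40.1 and 44.6 RPKM in fl/fl DMSO, with no overlap (log2 fold change -0.70 ± 0.07, adjusted p = 0.0233, limma).

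**Figure D2:**
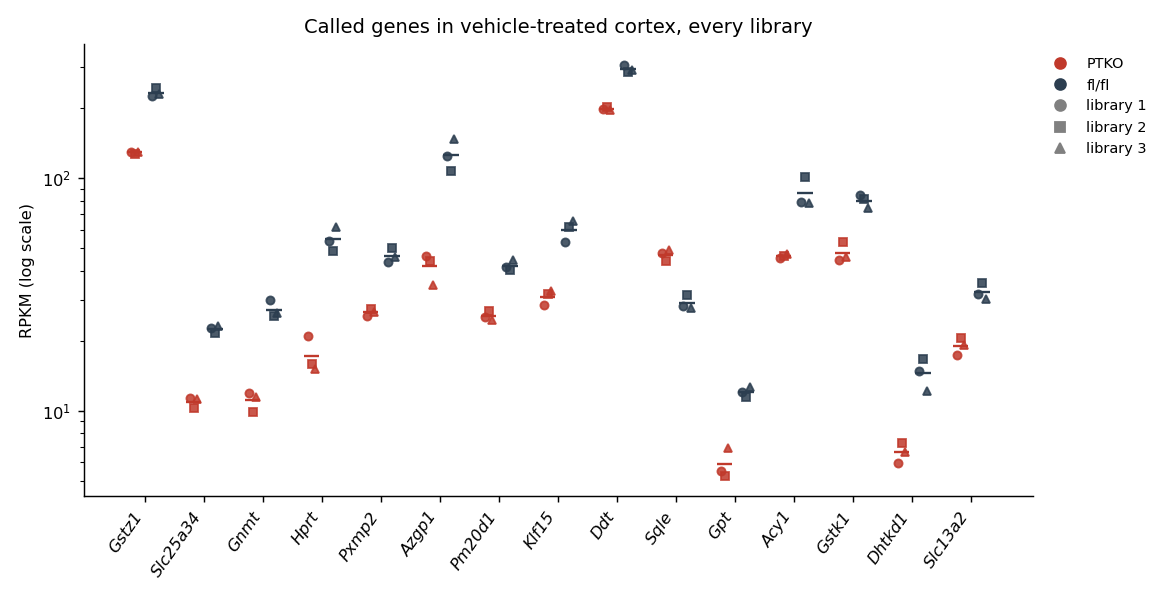
RPKM (log axis) of the 15 called genes in each library, PTKO DMSO to the left in red and fl/fl DMSO to the right in dark blue, in order of p, with 1 point per library and a bar at the mean of 3. The groups do not overlap for any of the 15 genes, 14 are lower in PTKO, and Sqle is the 1 that is higher.

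Amino acid breakdown was taken further with its listed genes. Of 21 tested genes for the breakdown of proline, tyrosine, lysine and tryptophan, 2 were called lower (Gstz1 and Gpt) and none higher. Their groups lay apart for 7 lower and 1 higher, against 6.3% and 8.46% of all tested genes, and their median log2 fold change was -0.12 against 0.01 over all. In the tyrosine pathway, Hpd, which makes homogentisate, measured 18.2, 15.8 and 12.5 RPKM in PTKO DMSO and 55.9, 56.4 and 32.6 RPKM in fl/fl DMSO. It did not pass the test (log2 fold change -1.55 ± 0.23, adjusted p = 0.0955, limma), though its groups did not overlap. Fah, the last enzyme of that pathway, measured 263, 259 and 225 RPKM in PTKO DMSO and 390.2, 362 and 385 RPKM in fl/fl DMSO, also without overlap and also not called (log2 fold change -0.61 ± 0.08, adjusted p = 0.064, limma). Prodh, the proline dehydrogenase, likewise missed the threshold at a log2 fold change of -0.57 ± 0.10 (adjusted p = 0.173, limma).

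None of the 21 tested genes of branched-chain amino acid breakdown was called. Their values were below 0 for 17 of 21, 8 of them at an unadjusted p under 0.05 with 2 more above 0, with a median log2 fold change of -0.18, and the groups lay apart for 10 lower and 2 higher, against 6.3% and 8.46% of all tested genes. Of all tested genes 3.88% were lower and 4.54% higher at an unadjusted p under 0.05. Ivd, the isovaleryl-CoA dehydrogenase of leucine breakdown, measured 178, 162 and 152 RPKM in PTKO DMSO and 249.98, 230.4 and 247 RPKM in fl/fl DMSO. The difference was not called (log2 fold change -0.56 ± 0.08, adjusted p = 0.0728, limma). Mut, the methylmalonyl-CoA mutase at the end of the valine and isoleucine routes, had a log2 fold change of -0.34 ± 0.06, and Bckdhb, a subunit of the branched-chain ketoacid dehydrogenase, one of -0.51 ± 0.10. Bcat1, the cytosolic branched-chain aminotransferase, lay on the other side, at 12.8, 8.39 and 13.9 RPKM in PTKO DMSO and 3.24, 5.81 and 3.16 RPKM in fl/fl DMSO (log2 fold change 1.34 ± 0.25, adjusted p = 0.197, limma). By library, the list's mean stood at -0.10, -0.15 and -0.12 log2 in PTKO DMSO and at -0.01, 0.05 and -0.05 in fl/fl DMSO, relative to the fl/fl mean.

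**Figure D3:**
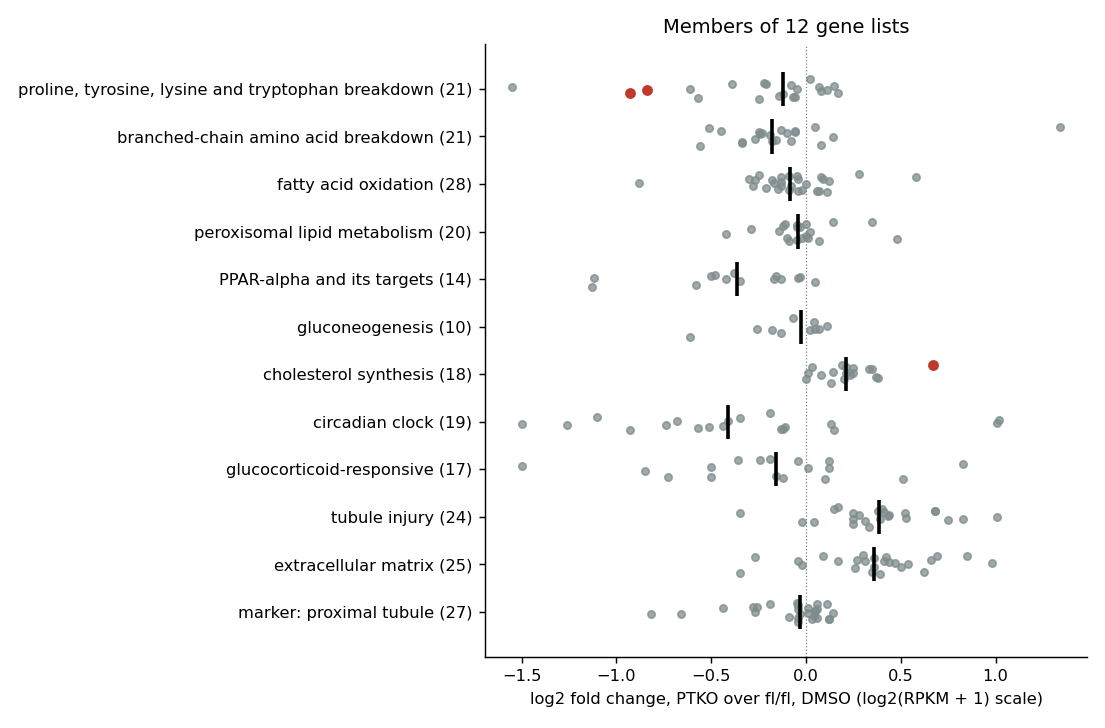
Log2 fold change, PTKO DMSO over fl/fl DMSO on the log2(RPKM + 1) scale, of each tested member of 12 gene lists, with called members in red, others in grey, and a black bar at the list's median (number tested in brackets). Most amino acid, PPAR-alpha and clock members lie left of 0 and all 18 cholesterol synthesis members lie at or right of it, while 3 members are called in the 12 lists.

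Fatty acid oxidation, the process named in the title of the study, held no called gene in the absence of toxin. Of its 28 tested genes 19 had a log2 fold change below 0, 8 of them at an unadjusted p under 0.05 with 1 more above 0, against 3.88% lower and 4.54% higher of all tested genes, and the median was -0.08. The groups lay apart for 10 lower and 1 higher, against 6.3% and 8.46% of all. The members with the smallest p were modest in size. Slc22a5, the carnitine importer, measured 70.05, 67.8 and 63.4 RPKM in PTKO DMSO and 82.1, 79.4 and 86.97 RPKM in fl/fl DMSO (log2 fold change -0.30 ± 0.07, adjusted p = 0.286, limma). Echs1, the short-chain enoyl-CoA hydratase, had a log2 fold change of -0.27 ± 0.07, and Slc25a20, the carnitine-acylcarnitine carrier, one of -0.28 ± 0.07. Cpt1a, the entry enzyme of the pathway, measured 145, 144 and 152 RPKM in PTKO DMSO and 168, 158 and 175 RPKM in fl/fl DMSO, a log2 fold change of -0.18 ± 0.06 (adjusted p = 0.513, limma). Acadm, the medium-chain acyl-CoA dehydrogenase, overlapped between the groups at 541, 387 and 527 RPKM in PTKO DMSO and 456, 431 and 444 RPKM in fl/fl DMSO.

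The 14 tested genes of PPAR-alpha and its targets, which switch on fat use, had a median log2 fold change of -0.37. None was called, though 13 lay below 0, 6 of them at an unadjusted p under 0.05, and the groups of 5 lay apart, all lower. Over all tested genes 3.88% were lower at that p and 6.3% were apart and lower. Ppara itself measured 19.01, 21.7 and 24.3 RPKM in PTKO DMSO and 30.4, 29.97 and 31.3 RPKM in fl/fl DMSO, apart but not called (log2 fold change -0.48 ± 0.09, adjusted p = 0.203, limma). Angptl4, a secreted inhibitor of lipoprotein lipase, measured 11.5, 21.8 and 29.9 RPKM in PTKO DMSO and 39.1, 47.8 and 45.7 RPKM in fl/fl DMSO (log2 fold change -1.13 ± 0.30, adjusted p = 0.389, limma). Its PTKO libraries differed from each other more than its fl/fl libraries did. Cyp4a10, a fatty acid hydroxylase with close copies among which reads can be split, had a log2 fold change of -0.50 ± 0.15. The list's mean stood at -0.45, -0.41 and -0.31 log2 in PTKO DMSO and at 0.08, 0.01 and -0.09 in fl/fl DMSO, with no overlap. The 20 tested genes of peroxisomal lipid metabolism had no call and a median of -0.04, although the channel protein Pxmp2 and the peroxisomal Gstk1, which are not on that list, were called. The 10 tested genes of gluconeogenesis had no call and a median of -0.02, with 3 lower and 0 higher at an unadjusted p under 0.05. Their groups lay apart for 3 lower and 0 higher, and those of the 20 peroxisomal genes for 4 lower and 1 higher. Over all tested genes 3.88% were lower at that p, 6.3% were apart and lower and 8.46% apart and higher. Pck1, the cytosolic PEP carboxykinase, measured 427, 679 and 575 RPKM in PTKO DMSO and 796, 788 and 948 RPKM in fl/fl DMSO (log2 fold change -0.61 ± 0.17, adjusted p = 0.405, limma).

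The 1 called gene that rose was Sqle (chr15:59315077-59331192, plus strand), the squalene epoxidase, a rate-limiting enzyme of cholesterol synthesis. Sqle measured 47.6, 44.2 and 48.9 RPKM in PTKO DMSO and 28.1, 31.3 and 27.7 RPKM in fl/fl DMSO. All PTKO libraries were above all fl/fl libraries (log2 fold change 0.67 ± 0.07, adjusted p = 0.0355, limma). No other gene of the 18 tested in cholesterol synthesis was called, but all 18 had a log2 fold change above 0, 6 had groups apart and higher, against 8.46% of all tested genes, and the median was 0.21. Cyp51, the lanosterol demethylase, had a log2 fold change of 0.33 ± 0.08 and Msmo1, the methylsterol monooxygenase, one of 0.38 ± 0.11, both short of a call. By library the list's mean was 0.31, 0.17 and 0.20 log2 in PTKO DMSO and 0.09, -0.02 and -0.07 in fl/fl DMSO.

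The largest difference in each direction was not called. Among genes with groups apart, the largest lower value belonged to Cyp2a5, a cytochrome P450, at 19.9, 18.1 and 38.2 RPKM in PTKO DMSO and 92.4, 83.98 and 80.5 RPKM in fl/fl DMSO (log2 fold change -1.79 ± 0.25, adjusted p = 0.0867, limma). The third PTKO library stood above the other PTKO libraries and still below all fl/fl libraries. The largest higher value belonged to Ces1g, a carboxylesterase, at 62.95, 78.6 and 97.1 RPKM in PTKO DMSO and 19.4, 17.9 and 51.04 RPKM in fl/fl DMSO (log2 fold change 1.55 ± 0.38, adjusted p = 0.355, limma). Here the third fl/fl library stood near the lowest PTKO library. Both genes have close family copies, so how reads were split between copies is uncertain. Others of this kind were Ccl28, an epithelial chemokine, with a log2 fold change of 1.33 ± 0.35, Serpina1a, a protease inhibitor of a family with near-identical copies, with one of 1.20 ± 0.27, and Aqp4, a basolateral water channel, with one of 1.17 ± 0.43. C3, the central complement component, had a log2 fold change of 1.24 ± 0.42, Itgb8, an integrin subunit, one of 1.11 ± 0.50, Cck, a gut and brain peptide hormone, one of 1.02 ± 0.31, and Akr1c18, an aldo-keto reductase with close copies, one of 1.02 ± 0.28. The third PTKO library was the highest for C3, at 3.64, 4.74 and 12.7 RPKM in PTKO DMSO. The second fl/fl library was the lowest for Itgb8, at 16.2, 4.30 and 22.8 RPKM in fl/fl DMSO. Cck was low, at 2.46, 1.33 and 2.46 RPKM in PTKO DMSO and 0.454, 1.28 and 0 RPKM in fl/fl DMSO. On the lower side were Plk3, a stress-responsive kinase, at -1.36 ± 0.32, and the small nucleolar RNAs Snord34 at -1.54 ± 0.46 and Snord42b at -1.54 ± 0.44, short transcripts with values of 0 to 1.48 RPKM in PTKO DMSO. The second fl/fl library was the highest for each of them. In fl/fl DMSO Plk3 measured 4.59, 12.6 and 5.68 RPKM, Snord34 1.68, 6.09 and 1.91 RPKM, and Snord42b 2.02, 7.31 and 3.44 RPKM. None of these genes passed the test.

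Tmem86a, Gpc3, Smarca2 and Fam102a were called in DMSO by the fit over all 18 libraries and not by that over 6. Tmem86a, a lysoplasmalogenase of ether lipid breakdown, measured 31.1, 28.98 and 35.2 RPKM in PTKO DMSO and 16.9, 19.3 and 14.8 RPKM in fl/fl DMSO. It was apart and higher, with a log2 fold change of 0.86 ± 0.11 and an adjusted p of 0.0632 by limma in the 6 DMSO libraries, against 0.0399 with all 18. The 12 tested genes of plasmalogen and ether lipid metabolism had no call and a median of 0.12. Smarca2, an ATPase of the SWI/SNF chromatin remodeler, measured 40.5, 48.6 and 38.4 RPKM in PTKO DMSO and 61.5, 64.8 and 67.4 RPKM in fl/fl DMSO (log2 fold change -0.60 ± 0.10, adjusted p = 0.109, and 0.0399 with all 18, limma). The 23 tested SWI/SNF subunits had no call and a median of -0.03. Fam102a had a log2 fold change of -0.46 ± 0.07 (adjusted p = 0.103, and 0.0399 with all 18, limma).

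The circadian clock held no called gene, yet most of its genes lay lower in PTKO. Of 19 tested clock genes 15 were below 0, 12 of them at an unadjusted p under 0.05, against 3.88% of all tested genes on that side. Groups lay apart for 10 lower and 1 higher, against 6.3% and 8.46% of all, and the median log2 fold change was -0.41. Per1, a repressor of the clock loop, measured 2.699, 3.497 and 4.72 RPKM in PTKO DMSO and 7.13, 24.4 and 9.36 RPKM in fl/fl DMSO (log2 fold change -1.50 ± 0.41, adjusted p = 0.404, limma). The second fl/fl library was far above the other libraries. Tef, an output factor, measured 48.8, 60.1 and 72.8 RPKM in PTKO DMSO and 84.9, 100.5 and 82.6 RPKM in fl/fl DMSO (log2 fold change -0.57 ± 0.15). Usp2, a rhythmic deubiquitinase, had a log2 fold change of -0.68 ± 0.17, Bhlhe40, a repressor, one of -0.51 ± 0.12, and Ciart, another repressor, one of -1.26 ± 0.39.

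The activators of the loop lay on the other side in part of the PTKO libraries. Arntl, which encodes BMAL1, measured 5.16, 4.22 and 1.54 RPKM in PTKO DMSO and 1.28, 0.731 and 1.499 RPKM in fl/fl DMSO. Npas2, its partner, measured 4.98, 2.84 and 0.869 RPKM in PTKO DMSO and 0.756, 0.453 and 1.07 RPKM in fl/fl DMSO. Dbp, an output factor, measured 23.4, 23.2 and 46.9 RPKM in PTKO DMSO and 51.8, 52.5 and 45.2 RPKM in fl/fl DMSO. For all 3 genes the first and second PTKO libraries stood apart from the fl/fl libraries and the third lay at or near them, so Npas2 and Dbp overlapped between the groups. Clock genes cycle over the day, and with no hour of collection in the labels, hour and genotype cannot be told apart. Of 17 tested glucocorticoid-responsive genes none was called, 11 were below 0, 5 of them at an unadjusted p under 0.05 against 3.88% of all, and the median was -0.16. Sgk1, a kinase induced by corticosteroids, measured 12.2, 12.8 and 12.3 RPKM in PTKO DMSO and 18.5, 39.4 and 16.9 RPKM in fl/fl DMSO, and Tsc22d3, also known as Gilz, had a log2 fold change of -0.73 ± 0.23.

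**Figure D4:**
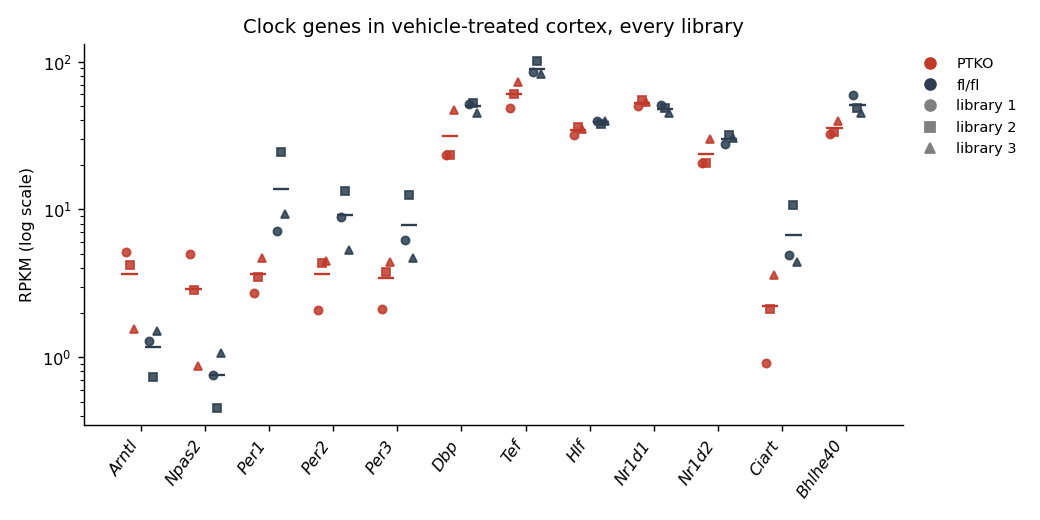
RPKM (log axis) of 12 clock genes in each library, PTKO DMSO to the left in red and fl/fl DMSO to the right in dark blue, with 1 point per library and a bar at the mean of 3. The third PTKO library (triangle) lies close to the fl/fl libraries for Arntl, Npas2 and Dbp, and the second fl/fl library (square) is the highest for Per1, Per2 and Ciart.

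Hprt, the purine salvage enzyme hypoxanthine-guanine phosphoribosyltransferase, had the largest change of the 15 called genes. Hprt (chrX:52988137-53021659, plus strand) measured 20.9, 15.9 and 15.1 RPKM in PTKO DMSO and 53.5, 48.4 and 61.6 RPKM in fl/fl DMSO. PTKO libraries averaged 31.7% of fl/fl, with no overlap (log2 fold change -1.61 ± 0.14, adjusted p = 0.0158, limma). It was the only one called among 22 tested genes of purine salvage and synthesis, whose median log2 fold change was 0.02. Gpc3, a glypican that carries heparan sulfate at the cell surface, is a neighbour of Hprt, with its start at -715.7 kb from that of Hprt. Gpc3 (chrX:52272426-52613950, minus strand) measured 18.2, 28.5 and 20.2 RPKM in PTKO DMSO and 8.602, 10.6 and 8.58 RPKM in fl/fl DMSO. All PTKO libraries were above all fl/fl libraries, and the difference missed the threshold in the 6 libraries and passed it with all 18 (log2 fold change 1.16 ± 0.17, adjusted p = 0.0867 and 0.0399, limma).

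Among the 13 tested genes within 2 Mb of Hprt, Hprt itself left out, none was called, 3 had an unadjusted p under 0.05 and the groups lay apart for 5 higher and 0 lower. Over all tested genes these shares were 8.42% at that p, 8.46% apart and higher and 6.3% apart and lower. The window was chosen with Hprt and Gpc3 known from earlier results of these data to differ. Gpc3 is counted among the 3 and among the 5, so these counts are no separate support. Gpc4, the next glypican, had a log2 fold change of 0.45 ± 0.12, and Hs6st2, a heparan sulfate sulfotransferase, one of 0.37 ± 0.13. The median over the 13 genes was 0.18. Within 5 Mb there were 34 tested genes with a median of 0.03 and no call. The 17 tested genes of the glypican and heparan sulfate list, which also holds genes of this region, had no call and a median of 0.14.

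Around Klf15 on chromosome 6 no neighbour was called either. Of 27 tested genes within 2 Mb, 3 had an unadjusted p under 0.05, against 8.42% of all tested genes, and the groups lay apart for 2 higher and 3 lower, against 8.46% and 6.3%. The median log2 fold change was 0.04. Aldh1l1, the folate enzyme 10-formyltetrahydrofolate dehydrogenase, starts 23.9 kb to the right and measured 175, 179.6 and 159 RPKM in PTKO DMSO and 244, 203 and 213 RPKM in fl/fl DMSO (log2 fold change -0.36 ± 0.09, adjusted p = 0.344, limma). Within 5 Mb, 67 genes were tested, with groups apart for 11 lower and 4 higher, against 6.3% and 8.46% of all tested genes, and a median of 0.00. Several of the lower values came from the acetyltransferase cluster of Cml5 (log2 fold change -1.25 ± 0.25), Cml2 (-0.59), Cml1 (-0.57) and Nat8 (-0.55), all apart and lower. These are related genes whose reads may be split between copies, which was not tested. Beside them Gm11128 (-1.05), Tprkb (-0.25) and Dusp11 (-0.49) were also apart and lower, while 1700019G17Rik (0.03) and Alms1-ps2 (-0.77) overlapped.

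**Figure D5:**
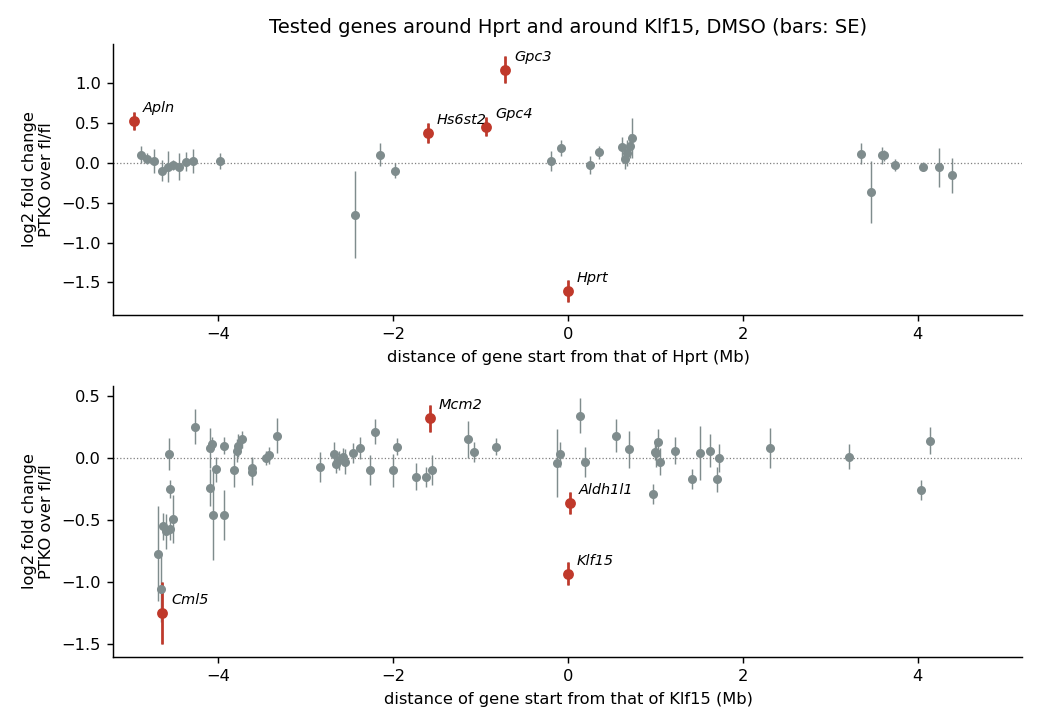
Log2 fold change with its SE (bars), PTKO DMSO over fl/fl DMSO on the log2(RPKM + 1) scale, of tested genes within 5 Mb of Hprt (upper panel) and of Klf15 (lower panel), by distance of gene starts, with genes of interest in red. Hprt is the lowest in its panel, Klf15 is the lowest within 2 Mb of its own start, and Gpc3, Gpc4 and Hs6st2 lie above 0 to the left of Hprt.

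Injury and matrix genes lay on the higher side without a call. Of 24 tested tubule injury genes 22 were above 0, 8 of them at an unadjusted p under 0.05 with 1 more below 0, with groups apart for 8 higher and 1 lower and a median log2 fold change of 0.39. Over all tested genes 4.54% were higher and 3.88% lower at that p, and 8.46% were apart and higher and 6.3% apart and lower. Prom1, an apical membrane protein of injured and regenerating tubule, measured 20.4, 22.4 and 17.7 RPKM in PTKO DMSO and 15.3, 13.6 and 14.6 RPKM in fl/fl DMSO (log2 fold change 0.44 ± 0.10, adjusted p = 0.274, limma). Clu, a secreted chaperone, measured 195, 219.8 and 238 RPKM in PTKO DMSO and 175, 151 and 165 RPKM in fl/fl DMSO (log2 fold change 0.41 ± 0.09). A single library decided the best known markers. Havcr1, which encodes KIM-1, measured 0.978, 0.6203 and 24.9 RPKM in PTKO DMSO and 0.713, 0.821 and 0.391 RPKM in fl/fl DMSO, and was not tested for want of 3 libraries at 1 RPKM. Lcn2, which encodes NGAL, measured 1.71, 1.81 and 9.34 RPKM in PTKO DMSO and 1.36, 2.42 and 0.7404 RPKM in fl/fl DMSO. Only the third PTKO library was high for both. The injury list's mean was 0.23, 0.29 and 0.62 log2 in PTKO DMSO and -0.05, 0.27 and -0.21 in fl/fl DMSO, so the second fl/fl library overlapped with PTKO.

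Of 25 tested extracellular matrix genes 21 were above 0, 4 of them at an unadjusted p under 0.05, with a median log2 fold change of 0.36, no call, and groups apart for 6, all higher, against 8.46% of all tested genes apart and higher and 4.54% higher at that p. Col4a1, a basement membrane collagen, measured 45.97, 49.9 and 44.97 RPKM in PTKO DMSO and 35.7, 36.1 and 29.2 RPKM in fl/fl DMSO (log2 fold change 0.47 ± 0.09, adjusted p = 0.219, limma). Col3a1, an interstitial collagen, measured 9.64, 9.59 and 15.02 RPKM in PTKO DMSO and 5.92, 9.15 and 2.35 RPKM in fl/fl DMSO (log2 fold change 0.98 ± 0.39, adjusted p = 0.568, limma). The list's mean was 0.21, 0.43 and 0.41 log2 in PTKO DMSO and 0.10, 0.50 and -0.61 in fl/fl DMSO, so the third fl/fl library alone lay low. Markers of fibroblasts and pericytes were above 0 for 8 of 10 tested, with a median of 0.26, and their summed level was 84.1, 120.1 and 101.9 RPKM in PTKO DMSO and 89.1, 165.8 and 39.4 RPKM in fl/fl DMSO. Macrophage markers were above 0 for 8 of 9 tested, with a median of 0.21 and a summed level of 124.9, 96.3 and 149.2 RPKM in PTKO DMSO and 95.5, 131.8 and 83.7 RPKM in fl/fl DMSO. Their part in the injury and matrix values was not tested.

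Other cell type markers showed no call. The 27 tested proximal tubule markers had a median log2 fold change of -0.03 and 3 at an unadjusted p under 0.05, all lower, against 3.88% of all tested genes. The groups lay apart for 1, which was lower, against 6.3% of all tested genes apart and lower. It was Cyp2e1, a cytochrome P450, at 703, 791 and 643 RPKM in PTKO DMSO and 1332, 982 and 1495 RPKM in fl/fl DMSO (log2 fold change -0.82 ± 0.16, adjusted p = 0.219, limma). Lrp2, the endocytic receptor megalin, overlapped between the groups (log2 fold change -0.66 ± 0.28). Medians were 0.00 for 10 podocyte markers, -0.08 for 11 endothelial markers, -0.01 for 7 distal convoluted tubule markers, -0.01 for 9 principal cell markers and 0.26 for 7 thick ascending limb markers. Of 9 intercalated cell markers 8 were below 0, with a median of -0.11. Foxi1, the transcription factor that specifies these cells, measured 16.4, 17.1 and 14.5 RPKM in PTKO DMSO and 20.01, 20.9 and 20.1 RPKM in fl/fl DMSO, apart but not called (log2 fold change -0.33 ± 0.08, adjusted p = 0.324, limma). Of the markers of T cells, neutrophils, adipocytes and the adrenal cortex 1 each was tested, of B and plasma cells 3, of papilla and urothelium 3, and of erythroid cells 0.

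Stress and growth lists had no call. Median log2 fold changes were 0.07 for 19 p53 targets, 0.13 for 14 NRF2 targets, -0.11 for 13 genes of the unfolded protein and integrated stress response, and -0.06 for 16 immediate early and heat shock genes. They were 0.17 for 13 inflammation genes and 0.29 for 8 cell cycle genes, the only ones tested of 23 listed. All 8 were above 0, against 6273 of 11767 tested genes, and 1 was apart and higher, against 8.46% of all. By library the cell cycle mean was 0.17, 0.08 and 0.44 log2 in PTKO DMSO. In fl/fl DMSO it was -0.07, 0.09 and -0.03, with overlap.

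The toxin-treated libraries gave the 15 called genes a second reading in samples that had no part in the calls. At AA 2wk all 15 had a log2 fold change of the same direction, 4 with an unadjusted p under 0.05 against 1.91% of all genes tested there, and 1, Hprt, was called (0.00769% of 13004). In that treatment 66.4% of all tested genes lay below 0, and the groups were apart and lower for 5 of the 14 lower genes, against 4.68% of all tested genes. For Sqle, the 1 higher gene, the groups overlapped, against 1.96% of tested genes apart and higher. At AA 4wk 14 of 15 had the same direction, 11 with an unadjusted p under 0.05 against 19.2% of all, and again Hprt alone was called (0.00754% of 13266). There 41.9% of tested genes lay below 0, and the groups were apart and lower for 10 of the 14, against 9.79% of all. At AA 4wk 26 of 27 proximal tubule markers were also below 0, with a median of -0.48 and groups apart and lower for 13, and their part in the values at AA 4wk was not tested. Leaving out PTKO AA 4wk 1, 2 or 3 gave 9, 3 and 6 called genes over the whole table. The exception in direction was Gpt, with a log2 fold change of 0.01 ± 0.13. The 14 lower genes had a DMSO median of -0.90, one of -0.59 at AA 2wk and one of -0.57 at AA 4wk.

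Klf15 itself measured 12.5, 17.5 and 25.6 RPKM in PTKO and 22.9, 18.6 and 41.3 RPKM in fl/fl at AA 2wk, with overlap (log2 fold change -0.52 ± 0.36). It measured 9.11, 8.81 and 9.53 RPKM in PTKO and 11.6, 14.6 and 18.8 RPKM in fl/fl at AA 4wk, without overlap (log2 fold change -0.63 ± 0.15). Gstz1 kept its groups apart at AA 4wk, at 43.2, 26.2 and 38.9 RPKM in PTKO and 60.9, 51.8 and 70.8 RPKM in fl/fl, and overlapped at AA 2wk (log2 fold change -0.56 ± 0.36). Azgp1 was apart in both, with log2 fold changes of -1.71 ± 0.37 at AA 2wk and -0.99 ± 0.24 at AA 4wk. Slc25a34, tight in DMSO, overlapped in both, with log2 fold changes of -0.09 ± 0.35 and -0.48 ± 0.21 at AA 2wk and AA 4wk. Sqle had log2 fold changes of 0.25 ± 0.16 and 0.13 ± 0.15 there, with overlap in both.

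The genotype gap of Hprt was wider in the toxin libraries than in DMSO. At AA 2wk it measured 7.02, 8.15 and 7.29 RPKM in PTKO and 88.1, 106 and 91.8 RPKM in fl/fl (log2 fold change -3.50 ± 0.12, adjusted p = 0.00046, limma). At AA 4wk it measured 7.09, 4.84 and 6.82 RPKM in PTKO and 85.4, 76.9 and 88.5 RPKM in fl/fl (log2 fold change -3.56 ± 0.13, adjusted p = 2.21e-05, limma). In PTKO the toxin libraries lay below the DMSO libraries and in fl/fl above them. The interaction of genotype with AA 2wk was called for 2 of 13624 genes (0.0147%), Hprt and Tmem86a, and that with AA 4wk for 1 (0.00734%), Hprt. Leaving out PTKO DMSO 1 or 3, fl/fl DMSO 1 or 3 or fl/fl AA 2wk 1 ended the call of Tmem86a, with an adjusted p of up to 0.0837 by limma, and left that of Hprt. Both interactions use the same DMSO libraries.

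Some of the lists with a median below 0 in DMSO were also looked at in the toxin libraries. The PPAR-alpha list had a median of -0.34 at AA 2wk, with 11 of 13 tested members below 0 and groups apart and lower for 0. At AA 4wk its median was -0.33, with 9 of 13 below 0 and groups apart and lower for 4. Ppara itself had log2 fold changes of -0.04 ± 0.43 and 0.01 ± 0.12 at AA 2wk and AA 4wk. The clock list had a median of -0.02 at AA 2wk and 0.05 at AA 4wk. Branched-chain amino acid breakdown had 21 of 21 members below 0 at AA 2wk, against 66.4% of all genes tested there, with a median of -0.35 and groups apart and lower for 0. At AA 4wk it had 20 of 21 below 0, against 41.9% of all, with a median of -0.42 and groups apart and lower for 18. Fatty acid oxidation had a median of -0.19 and groups apart and lower for 0 at AA 2wk, and a median of -0.34 with 17 apart and lower at AA 4wk. The proline, tyrosine, lysine and tryptophan list had 12 of 21 below 0 at AA 2wk, with a median of -0.20. At AA 4wk it had 18 of 20 below 0, with a median of -0.41 and 10 apart and lower. Peroxisomal lipid metabolism and gluconeogenesis had medians of -0.38 and -0.37 at AA 4wk, with 13 of 20 and 6 of 10 apart and lower. Over all genes 4.68% were apart and lower at AA 2wk and 9.79% at AA 4wk. The proximal tubule markers had medians of 0.01 and -0.48 at these times. Among the lists with a median above 0 in DMSO, extracellular matrix had a median of -0.59 at AA 2wk, with 22 of 25 below 0. At AA 4wk its median was 0.51, with 3 of 25 below 0. Cell cycle had medians of -0.09, with 7 of 8 below 0, and 0.30, with 0 of 8 below 0. Cholesterol synthesis had medians of 0.23, with 1 of 17 below 0, and -0.05, with 11 of 17 below 0. Tubule injury had medians of 0.14 and 0.24.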

How the data were processed

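RNA from mouse kidney cortex was sequenced with a stranded total RNA kit, per the labels' protocols. The deposited values are RPKM, per the file headers. bcl2fastq 2.19, kallisto and build mm10 are named in the submitters' processing notes, and how reads became RPKM is not stated in the labels or headers. The table holds 24062 genes, of which 27 have names that read as dates and 0 are mitochondrially encoded.

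A gene was tested where 3 or more of the 6 DMSO libraries reached 1 RPKM, with values as log2(RPKM + 1), using limma 3.58.1 (R 4.3.3), with 2 group means, an intensity trend and robust moderation. Fold changes on this scale understate the change of low genes. Tests were two-sided, with Benjamini-Hochberg adjustment over 11767 genes and calls at 0.05. An exact test of 3 against 3 cannot go below 0.1. The spread was taken from these 6 libraries and not from all 18. The same fit was run in each toxin treatment, and the interaction used 18 libraries. The fit was tested on simulated data.

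Steps of the RPKM values gave whole reads, within 0.02 reads, for all 17579 of 17579 genes above 0 in 6 or more of the 18 libraries (100.0%). voom was run on these reads as an alternative. Coordinates are from GENCODE for GRCm38 (mm10), which placed 11687 tested genes, and promoters from RefSeq for GRCm38.p6.

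The members and the 39 lists were chosen with earlier results of these data known. Genes named are Klf15, those called here or over 18 libraries, the 10 largest differences in each direction with groups apart, and up to 4 of each list by p. Prodh, Cpt1a, Acadm, Arntl, Npas2, Dbp, Cml1, Nat8, Apln and Aldh1l1, and the markers that stood out in a library, were named after their values were seen. Lists are described by counts and medians with no test.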

Additional observations from a re-analysis of the deposited data

Results flagged for a closer look

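The difference between the genotype effect under toxin and that under DMSO passed the test for Hprt in both treatments. At AA 2wk minus DMSO it was -1.90 ± 0.20 (SE, log2, adjusted p = 0.00108, limma) and at AA 4wk minus DMSO -1.95 ± 0.20 (adjusted p = 0.000756, limma). Hprt was lower in 3 of 3 PTKO libraries than in every fl/fl library in each treatment. Both differences were called in 18 of 18 fits that left out 1 library.

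For Tmem86a the difference at AA 2wk minus DMSO was -1.42 ± 0.20 (adjusted p = 0.0181, limma). It measured 12.8, 14.03 and 9.85 RPKM in PTKO and 17.4, 15.97 and 21.7 RPKM in fl/fl at AA 2wk, so the PTKO libraries were the lower ones there (log2 fold change -0.55 ± 0.17) and the higher ones in DMSO (log2 fold change 0.86 ± 0.11). At AA 4wk it measured 22.8, 28.4 and 24.7 RPKM in PTKO and 27.3, 29.8 and 26.9 RPKM in fl/fl, with overlap. The difference at AA 2wk was called in 13 of 18 fits that left out 1 library, with values of -1.52 to -1.28. The DMSO libraries are shared by both differences.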

How the results depend on the processing

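Of the settings tried on the DMSO comparison, which called 15 genes, a pseudocount of 0.1 or 0.5 and median-of-ratios scaling called 15 each, quantile normalization 19, a filter of 5 RPKM 21 and voom on recovered reads 10. No filter on low values called 3, no trend and no robust moderation 4, and the fit over 18 libraries 5. Sample quality weights called 2815, with a weight of 26.5 on fl/fl DMSO 1 against 0.183 and 0.264 on the other fl/fl libraries, and are not used for any statement. Leaving out 1 library gave 0 to 29. The cause of these shifts was not tested. Over 16 settings, quality weights left out, no called gene changed direction, and Hprt was called in the most, 12, while Gstk1 was called in 5. The called genes were picked in these same libraries, so a kept direction is no separate support. Both scalings left the median of all genes at 0.01.

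Replicate numbers were not used as pairs in the main fit. The deviations of same-numbered libraries correlated at 0.081, 0.225 and 0.163, and those of different-numbered libraries at -0.296 to 0.175. These values do not settle whether the numbers mark pairs. With a replicate block 11 genes were called in DMSO, 6 of them among the 15, 4 at AA 2wk against 1, and 1 for the interaction at AA 2wk against 2.

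At AA 2wk quality weights called 2. At AA 4wk, with 1 call, a pseudocount of 0.1 called 2, quality weights 25, and leaving out 1 library 1 to 9. For the interaction at AA 2wk quality weights called 4 and leaving out 1 library 1 to 8. For that at AA 4wk median-of-ratios scaling called 3. Of 1431 values of named genes under other settings none reversed, and of 640 list values 37 moved by more than the spread.

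Depth limits low genes such as Arntl, Npas2 and Havcr1, which lie below 2 RPKM in at least 4 of the 6 libraries. No cell type was isolated and no Cre control was labelled.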
